A study of Mus musculus with 12 samples.

Results

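The claudin and tight junction genes described here are 9 genes picked by name, the claudins Cldn2, Cldn3, Cldn4, Cldn7, Cldn8, Cldn15 and Cldn23, occludin (Ocln) and the scaffold gene Tjp1, of 19937 genes named by a probe set of the array. Each was read from its own probe set that names 1 gene, and none of the 9 had more than 1 such probe set. The 12 arrays hold total RNA from the small intestine of wild-type male FVB mice, 6 fed a control diet labelled HF and 6 fed a diet in which polyunsaturated fatty acids are low relative to saturated ones (low P/S). The labels give an age of 8 weeks and 8 weeks of diet, without saying which came before the other, and do not give the stretch of intestine. The series title links the diet to cholesterol excretion through the intestinal wall.

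Tight junctions close the space between neighbouring epithelial cells near their apical edge. Claudins are small membrane proteins whose extracellular loops meet across that space, and the mixture of claudins sets how leaky the epithelium is and to which ions. Cldn2 and Cldn15 are known as pore formers for small cations, which supply the lumen with the sodium that sugar and bile acid uptake depend on. Cldn3, Cldn4 and Cldn8 are known mainly as sealing claudins. Cldn7 also lies along the lateral membrane, where its protein binds Epcam. Ocln is a membrane protein of another family, and Tjp1 encodes ZO-1, the scaffold that ties claudins to the actin cytoskeleton.

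On the low P/S diet Cldn2 rose 1.71-fold and Cldn3 1.18-fold, while Cldn15 fell 1.19-fold and Cldn7 1.14-fold. Cldn4, Cldn23, Ocln and Tjp1 did not pass, and Cldn8 was too dim to test. Each gene was tested with limma on the log2 of the deposited intensity, and a call means a Benjamini-Hochberg adjusted p under 0.05 over 11962 genes. Of the 8 tested genes 4 passed, 2 higher and 2 lower, beside 25.7% of all genes tested, of which 17.8% were higher and 7.87% lower. The median difference of the 8 was -0.10 on the log2 scale, beside 0.02 over all genes tested. Quantile normalization gave 1856 higher and 1595 lower genes in place of 2132 and 942, and under it the 8 genes held 2 higher and 4 lower, with Cldn4 and Ocln added to the lower ones. With median centring they held 2 higher and 1 lower, since Cldn7 did not pass. Intensities below are those of single arrays or geometric means over 6 arrays, each difference subtracts the control mean of log2 values from the low P/S mean, and ± is the standard error from limma unless an SD is named. The 95% intervals from limma are not adjusted for the number of genes. In whole tissue, fewer cells of a type and less RNA per cell cannot be told apart.

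**Figure D1:**
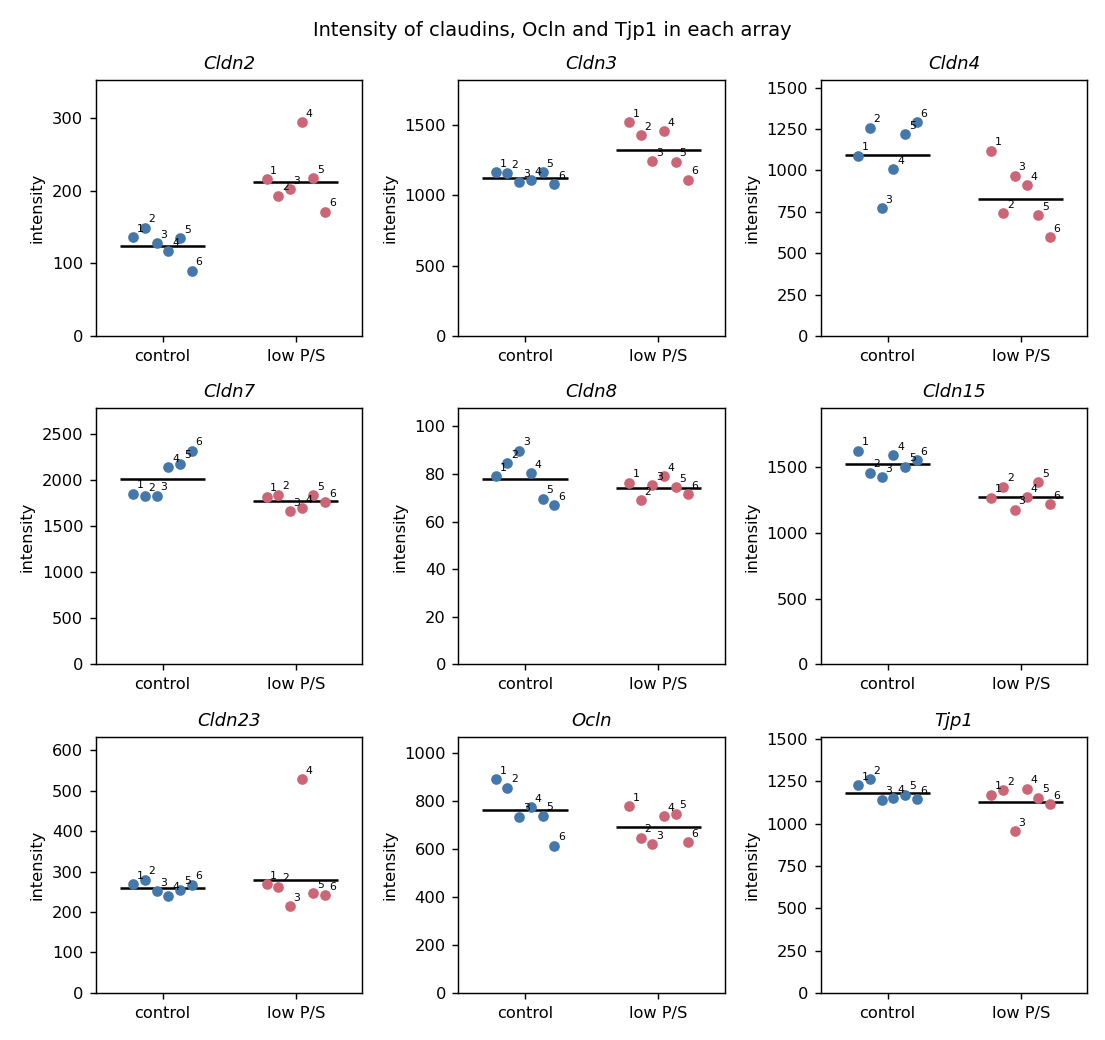
Intensity (linear axis from 0) of the 9 genes in each control and low P/S array; the small digits are the array numbers and the bar is the geometric mean of 6 arrays. Cldn2 and Cldn15 separate the diets completely, and Cldn23 has 1 low P/S array, number 4, at 528 with the others between 215 and 269.

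The labelled tissue was checked against markers of intestinal epithelium. The 10 epithelium markers summed to between 29131 and 36787 in the control arrays and to between 26827 and 30390 in the low P/S arrays. The median intensity of all probe sets lay between 91.9 and 99.5 per array. No marker in any list was listed at 0, and a dim intensity does not show whether a gene is expressed.

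Cldn2, the cation and water pore, had intensities of 136, 149, 128, 117, 135 and 89.9 in control arrays 1 to 6. In low P/S arrays 1 to 6 they were 216, 193, 202, 294, 217 and 171. Every low P/S array lay above every control array, with array 4 highest on the low P/S diet and array 6 lowest on both diets. The geometric mean went from 124 to 212, a difference of 0.77 ± 0.12 (95% interval 0.51 to 1.04, limma adjusted p = 4.15e-04). The size of this difference was greater than that of 99.0% of all genes tested. Without low P/S array 4 it was 0.68 (limma adjusted p = 4.88e-04), and over all single arrays left out it ranged from 0.68 to 0.84. Groups without overlap were seen in 10.8% of the genes tested. Cldn2 was dim on the control diet. Its control array 6, at 89.9, lay below the lowest array median of 91.9 and near the level of 85.6 set for testing. With a pseudocount of 16 the Cldn2 difference was 0.70 (limma adjusted p = 5.31e-04).

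Cldn15, the other pore-forming claudin, went the opposite way. Its control intensities were 1621, 1455, 1422, 1589, 1500 and 1549 in arrays 1 to 6, and its low P/S intensities were 1265, 1348, 1174, 1271, 1384 and 1216. All low P/S arrays lay below the lowest control array. The difference was -0.26 ± 0.05 (95% interval -0.37 to -0.14, limma adjusted p = 0.00252), from a geometric mean of 1521 to 1274. It stayed between -0.28 and -0.23 when any 1 array was left out, each time with a call.

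The unequal change of the 2 pore formers was tested within arrays, which takes out any scaling of a whole array. The log2 value of Cldn2 minus that of Cldn15 was -3.61 ± 0.29 (SD, n = 6) on the control diet and -2.58 ± 0.26 (SD, n = 6) on the low P/S diet. This is a shift of 1.03, with an exact 95% interval from 0.69 to 1.38, and no array of one diet lay within the range of the other (exact two-sided permutation p = 0.00216, which is the lowest value possible with 6 against 6, and 0.00649 after Benjamini-Hochberg adjustment over 3 gene pairs). Since each gene alone already separated the diets, in opposite directions, this p follows from those separations and adds no support to them. These values mark the change between diets only, since probe sets differ in brightness and the levels of 2 genes cannot be compared.

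The sequences upstream of the annotated starts of the 2 pore formers are shown because these are the 2 genes whose diets did not overlap, in opposite directions. They are the 250 bases before the start, from RefSeq on GRCm38.p6, Cldn2 at chrX:139800558-139800807 on the plus strand and Cldn15 at chr5:136967619-136967868 on the plus strand. Capitals mark matches to the short motifs searched on both strands.
Cldn2: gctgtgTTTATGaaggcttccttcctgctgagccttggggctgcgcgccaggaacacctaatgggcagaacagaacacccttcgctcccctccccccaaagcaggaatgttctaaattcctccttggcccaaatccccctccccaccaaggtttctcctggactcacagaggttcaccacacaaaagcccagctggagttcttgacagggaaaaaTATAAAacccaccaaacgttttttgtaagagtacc
Cldn15: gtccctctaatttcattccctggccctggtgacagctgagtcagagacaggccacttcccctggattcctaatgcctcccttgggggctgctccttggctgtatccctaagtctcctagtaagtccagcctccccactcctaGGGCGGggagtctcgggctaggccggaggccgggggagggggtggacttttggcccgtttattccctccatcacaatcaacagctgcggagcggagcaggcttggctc

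The motifs searched were TTTATG for the intestinal CDX factors, AGATAA for GATA factors, CAAAGTCCA for HNF4, GTTAAT as an HNF1 core, GGGCGG for SP1, CACGTG for the clock factors and TATAAA as a TATA box. Each motif was counted on its own, and the matches in the 9 stretches did not overlap one another. Upstream sequence was found for 7 of the 9 genes, with 9 starts in all, and Cldn8 and Cldn23 had no match in the table. The Cldn2 stretch held TTTATG at 244 to 239 bases before the start and TATAAA at 35 to 30 bases before it, motifs held by 10.8% and 12.4% of the 32851 upstream stretches in the table. Cldn2 was the member with TTTATG or TATAAA, and it lacked GGGCGG. The SP1 letters stood in 7 of the 9 stretches, those of Cldn3, Cldn4, Cldn15 and Tjp1, both of Ocln and 1 of the 2 of Cldn7, beside 32.7% of all stretches. The letters for GATA, HNF4, HNF1 and the clock factors, held by 9.99%, 0.384%, 6.43% and 6.02% of all stretches, were in none of these windows. A match is a description of letters, not a binding site.

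Cdx2, an intestinal homeodomain factor known to act on the Cldn2 promoter, rose 1.12-fold (0.16 ± 0.05, limma adjusted p = 0.0228), but did not pass with quantile normalization (0.10, adjusted p = 0.191) or when the fifth low P/S array was left out (0.15, adjusted p = 0.0516). In the gut Cldn2 is known as a claudin of the crypts. Of 8 tested crypt and stem cell markers 1 rose, Cd44, and 7 did not pass, and the list summed to between 2612 and 3526 on the control and between 2697 and 3514 on the low P/S diet. Of 9 tested proliferation markers 8 rose and 1 did not pass, where 17.8% of all genes tested were higher. With an ordinary variance per gene 5 rose, and over single arrays left out in turn 7 to 9 did. The 9 markers summed to between 2644 and 4215 on the control and between 3975 and 5324 on the low P/S diet. The replication gene Mcm2 rose 1.82-fold (0.86 ± 0.14, limma adjusted p = 5.53e-04) and the mitotic kinase gene Bub1 1.36-fold. The part of proliferating cells in the Cldn2 difference was not tested.

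Across the 12 arrays, after the mean of each diet was subtracted, the 5 tested genes most like Cldn2 were Nudcd1 (Pearson r = 0.982), Abce1 (0.968), Septin2 (0.955), Tsr1 (0.955) and Ttc27 (0.954). Without low P/S array 4 these values were 0.981, 0.961, 0.965, 0.929 and 0.927. All values share the arrays and their normalization and are given as a description. Of the 5, all but Septin2 passed as higher on the low P/S diet.

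**Figure D2:**
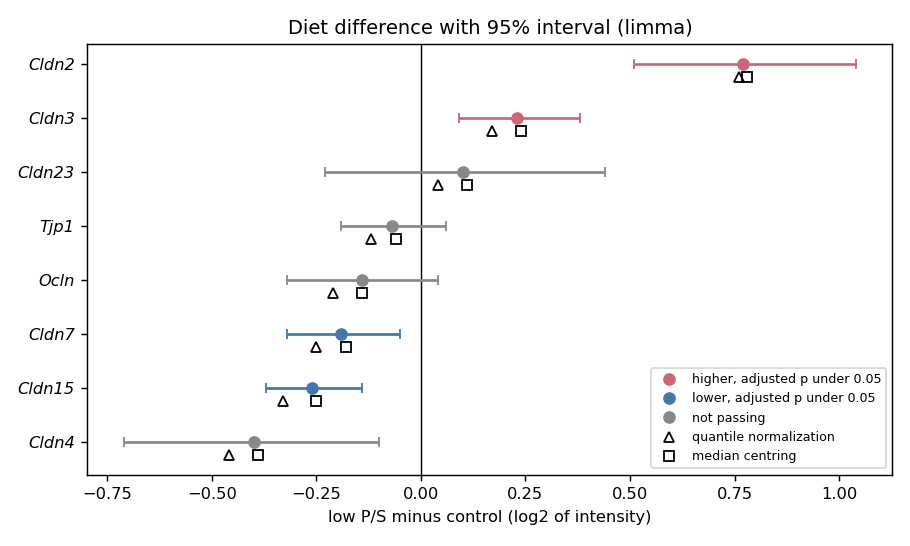
Diet difference (log2 of intensity) for the 8 tested genes, with the unadjusted 95% interval from limma; colours mark the call, and open triangles and squares give the difference after quantile normalization and median centring. Cldn2 lies at 0.77 and Cldn3 at 0.23, while Cldn4, with the most negative difference of -0.40, has a wide interval from -0.71 to -0.10 and did not pass.

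Among the sealing claudins Cldn3 rose, while Cldn4 had a negative difference that did not pass. Cldn3 had intensities of 1160, 1156, 1090, 1105, 1160 and 1075 in control arrays 1 to 6 and of 1515, 1426, 1242, 1453, 1237 and 1109 in low P/S arrays 1 to 6. The control arrays were tightly grouped, and 5 of 6 low P/S arrays lay above the highest of them, all but array 6. The difference was 0.23 ± 0.07 (95% interval 0.09 to 0.38, limma adjusted p = 0.0204). When the first low P/S array was left out it did not pass (0.20, adjusted p = 0.0501).

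Cldn4 varied most among the sealing claudins within each diet, with an SD on the log2 scale of 0.28 on the control diet and 0.33 on low P/S. Its intensities were 1090, 1259, 772, 1009, 1219 and 1290 in control arrays 1 to 6 and 1118, 740, 968, 911, 730 and 595 in low P/S arrays 1 to 6. Control array 3 was low and low P/S array 1 was high, so the diets overlapped, with 3 of 6 low P/S arrays below every control array. The difference of -0.40 ± 0.14 did not pass (limma adjusted p = 0.0508). It passed when control array 3 was left out (-0.50, adjusted p = 0.0141). The same held for omission of the first (-0.49, adjusted p = 0.0204) and the third (-0.45, adjusted p = 0.0415) low P/S array, and it passed with quantile normalization (-0.46, adjusted p = 0.0210) or a filter at the 60th percentile (adjusted p = 0.0424). Over all settings run, the difference ranged from -0.50 to -0.31.

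Cldn3 and Cldn4 are next to each other among the protein-coding genes of chromosome 5. Within arrays, Cldn4 minus Cldn3 went from -0.04 ± 0.26 (SD, n = 6) on the control to -0.68 ± 0.24 (SD, n = 6) on the low P/S diet. This is a shift of -0.64, with an exact 95% interval from -0.95 to -0.31 (exact two-sided permutation p = 0.00649, 0.00974 after adjustment over 3 gene pairs). Control array 3, at -0.50, was the control array that lay within the low P/S range. The shift combines the differences of both genes. Its p is adjusted over 3 pairs, not over all genes, and cannot be set beside the adjusted p of Cldn4. The genes were also chosen with earlier results of these data known, so this p is a description.

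**Figure D3:**
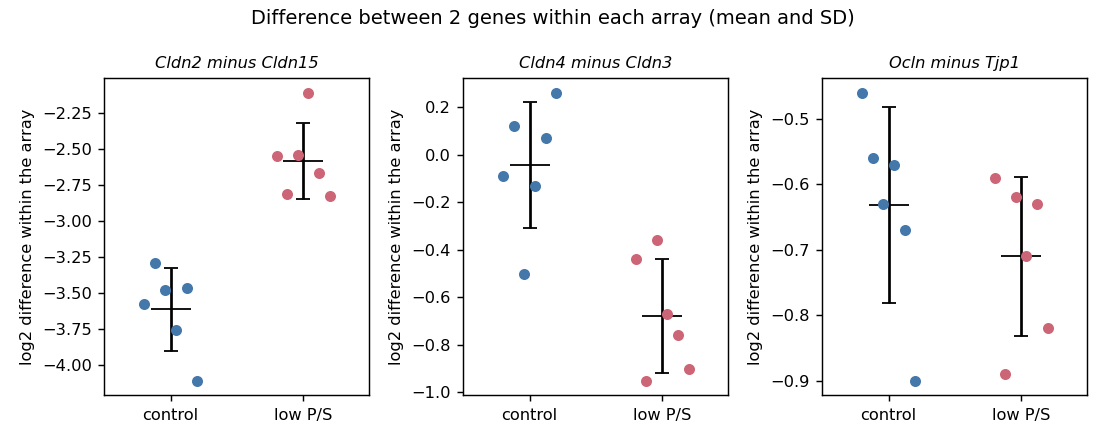
Difference of the log2 values of 2 genes within each array, for 3 gene pairs on each diet; points are arrays and the bar with whiskers is the mean ± SD of 6. Cldn2 minus Cldn15 separates the diets completely, Cldn4 minus Cldn3 with 1 control array among the low P/S arrays, and Ocln minus Tjp1 overlaps.

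The stretches upstream of these neighbours are shown for comparison with that of Cldn2, again 250 bases of RefSeq on GRCm38.p6 with the SP1 letters in capitals. Cldn3 lies at chr5:134985964-134986213 on the plus strand and Cldn4 at chr5:134946935-134947184 on the minus strand.
Cldn3: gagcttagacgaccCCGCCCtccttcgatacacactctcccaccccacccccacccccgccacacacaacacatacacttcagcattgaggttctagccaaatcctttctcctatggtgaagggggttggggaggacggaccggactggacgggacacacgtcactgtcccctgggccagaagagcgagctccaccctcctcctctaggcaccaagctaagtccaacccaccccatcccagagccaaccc
Cldn4: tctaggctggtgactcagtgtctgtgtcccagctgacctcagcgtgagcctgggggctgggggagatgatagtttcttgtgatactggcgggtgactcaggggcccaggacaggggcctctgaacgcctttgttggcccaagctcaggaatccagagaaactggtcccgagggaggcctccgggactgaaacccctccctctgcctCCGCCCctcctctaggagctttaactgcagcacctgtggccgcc

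Both share the SP1 letters in the CCGCCC orientation, at 236 to 231 bases before the start of Cldn3 and at 44 to 39 before that of Cldn4, and none of the other motifs searched. In the gut Cldn4 is also known from the epithelium over lymphoid follicles. Of 6 tested markers of that epithelium and its M cells 2 rose, Ccl9 (0.20, limma adjusted p = 0.0375) and Anxa5 (0.36, limma adjusted p = 0.0430), and 4 did not pass, with sums of 961 to 1132 on the control diet and 1064 to 1194 on low P/S. Neither passed with quantile normalization (adjusted p = 0.0609 and 0.0573). The Ccl9 call ended on omission of control array 2, 4 or 6 or of the low P/S arrays 1, 3, 4 or 5 (adjusted p up to 0.0885), and the Anxa5 call on omission of control array 3, 4, 5 or 6 or of any of the low P/S arrays 1 to 5 (adjusted p up to 0.101). The part of these cells in the Cldn4 values was not tested. Gene for gene, the closest to Cldn4 after subtraction of diet means were Pgm2 (Pearson r = 0.854), Ncoa4 (0.831), Serpinb6a (0.829), Rasgef1b (0.827) and Dusp6 (0.822).

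Cldn7, the claudin that binds Epcam, had intensities of 1857, 1829, 1834, 2141, 2183 and 2321 in control arrays 1 to 6 and of 1821, 1846, 1666, 1697, 1841 and 1765 in low P/S arrays 1 to 6. Control arrays 4 to 6 stood above all others, and control arrays 2 and 3 lay within the low P/S range. The difference was -0.19 ± 0.06 (95% interval -0.32 to -0.05, limma adjusted p = 0.0418). The call ended when control array 4, 5 or 6 was left out, and likewise for each low P/S array but the second, with adjusted p-values from 0.0516 to 0.0961. It also ended with median centring (adjusted p = 0.0677) and in a fit with no filter on dim genes (adjusted p = 0.0525). Epcam itself fell by 0.17 on the log2 scale (SE 0.05, limma adjusted p = 0.0228), and its diets did not overlap, but it did not pass with median centring (adjusted p = 0.0533).

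Cldn8 had a geometric mean of 78.0 on the control diet and 74.2 on low P/S, below the level of 85.6 set for testing. Its arrays ran from 67.0 to 89.7 on the control and from 68.9 to 79.0 on the low P/S diet. All low P/S arrays lay within the control range.

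Cldn23 had intensities of 269, 280, 251, 240, 255 and 268 in control arrays 1 to 6. On the low P/S diet they were 269, 263, 215, 528, 247 and 241. Array 4 alone stood apart, and the other 5 low P/S arrays ran from 215 to 269. The difference of 0.10 ± 0.16 did not pass (limma adjusted p = 0.656), and without array 4 it turned to -0.08 (adjusted p = 0.414). Chosen after these values were seen, the genes most like Cldn23 after subtraction of diet means were the cyclin gene Ccnl1 (Pearson r = 0.981), the kinase gene Plk3 (0.968), Phlda1 (0.954), the growth factor gene Ereg (0.953) and the urokinase gene Plau (0.949). In low P/S array 4 they reached 980, 897, 486, 562 and 201. Without that array their correlations with Cldn23 were 0.910, 0.821, 0.731, 0.705 and 0.690.

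**Figure D4:**
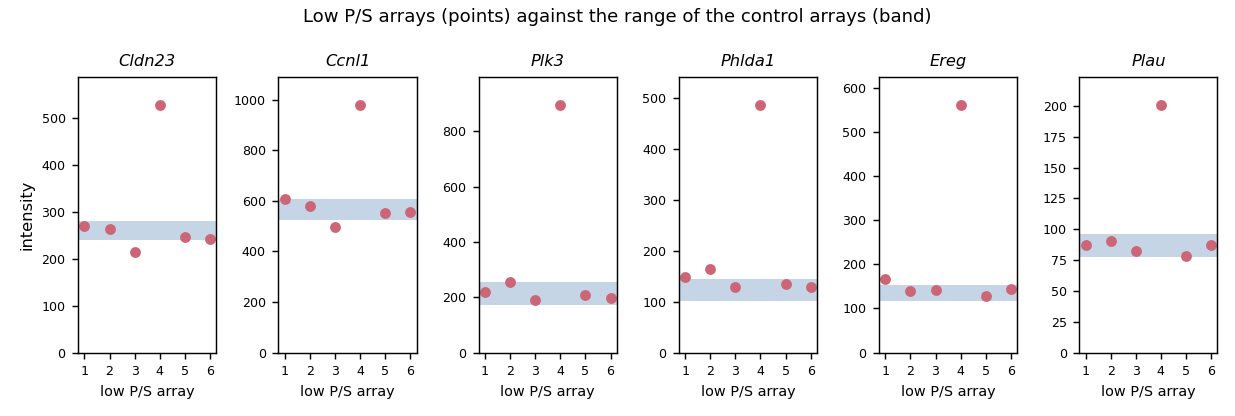
Intensity of Cldn23 and of the 5 genes most like it in low P/S arrays 1 to 6 (points), with the range of the 6 control arrays as a band, on linear axes from 0. In each panel array 4 is far above the other 5 low P/S arrays and the band; for Ereg it is at 562, with control arrays between 117 and 153.

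Array 4 was also the highest low P/S array for Cldn2, but the Cldn2 groups did not overlap with or without it.

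Ocln ran from 614 to 891 on the control diet, with a median of 757, and from 621 to 780 on the low P/S diet, with a median of 693. The diets overlapped over most of their range. The difference of -0.14 ± 0.09 (95% interval -0.32 to 0.04) gave a limma adjusted p of 0.232, and quantile normalization brought it past the threshold (-0.21, adjusted p = 0.0260).

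Tjp1 ran from 1143 to 1262 on the control diet, with a median of 1161, and from 955 to 1208 on the low P/S diet, with a median of 1162. Low P/S array 3, at 955, was the lowest of all, and the diets overlapped. The difference of -0.07 ± 0.06 (95% interval -0.19 to 0.06) did not pass (limma adjusted p = 0.430). The Ocln minus Tjp1 difference within arrays shifted by -0.08 (exact 95% interval -0.25 to 0.10, exact two-sided permutation p = 0.351, the same after adjustment over 3 gene pairs).

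The other genes of the junctions were read from lists chosen by function. Over 5 lists of other claudins, tight junction, adherens junction and desmosome genes, 59 genes were tested, of which 3 rose, 11 fell and 45 did not pass. That is 5.08% higher and 18.6% lower, beside 17.8% and 7.87% of all genes tested, and the median difference was -0.06 beside 0.02. With quantile normalization the same 59 genes held 1 higher and 21 lower, and with median centring 2 and 9. Over single arrays left out in turn they held 2 to 3 higher and 9 to 12 lower.

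Of 17 other claudins and claudin-like genes found, 12 were below the level for testing, with geometric means from 45.1 (Cldn24, low P/S) to 84.9 (Cldn14, control). These 12 were Cldn1, Cldn6, Cldn9, Cldn10, Cldn13, Cldn14, Cldn16, Cldn17, Cldn18, Cldn20, Cldn22 and Cldn24. Of the 5 tested, Cldn12 rose from a geometric mean of 256 to 282 (0.14 ± 0.05, limma adjusted p = 0.0471). That call ended with quantile normalization (0.07, adjusted p = 0.237), with median centring, and without any 1 of 10 arrays, all but control array 1 and low P/S array 3 (highest adjusted p = 0.104). Cldn5, known from endothelium, Cldn11, Cldn19 and the claudin-like gene Cldnd1 did not pass, with differences of -0.06, -0.07, -0.06 and -0.15, in that order. Cldnd1 passed as lower with quantile normalization (-0.22, adjusted p = 0.0108) and when control array 6 was left out (-0.20, adjusted p = 0.0300).

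Scaffold and polarity genes of the tight junction held 6 lower and 1 higher of 22 tested, with 15 not passing and a median difference of -0.06. With quantile normalization 9 were lower and 0 higher. Prkcz, an atypical protein kinase C of the polarity complex, had intensities of 1076, 975, 1034, 1164, 1065 and 1119 in control arrays 1 to 6 and of 814, 829, 740, 718, 887 and 913 in low P/S arrays 1 to 6. No array of one diet overlapped the other, and the intensity fell 1.32-fold (-0.40 ± 0.06, limma adjusted p = 4.91e-04). Prkcz had 2 probe sets, and these values are of the brighter alone. The other is not given, and whether the brighter reads Prkcz was not tested.

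The scaffold genes Magi3, Cgn, which encodes cingulin, and Patj, of the Crumbs polarity complex, fell 1.34-fold, 1.23-fold and 1.20-fold, each without overlap of the groups. The remaining calls, named after their values were seen, were Mpp5 (fell by 0.24 on the log2 scale, adjusted p = 0.0260), Ybx3 (0.18, adjusted p = 0.0191, with quantile normalization 0.12 and 0.0531) and Sympk. The Mpp5 call ended with median centring (adjusted p = 0.0556) and on omission of control array 1 or 5, or of the low P/S arrays 3, 5 or 6 (adjusted p up to 0.0620). Sympk had the largest difference of the list, -1.04 ± 0.31, but its arrays ran from 615 to 1787 on the control and from 215 to 689 on the low P/S diet, and its call ended with a trended robust prior (adjusted p = 0.0668) or an unmoderated variance (adjusted p = 0.0801). Sympk was also read from the brighter of 2 probe sets. The other is not given, and whether the brighter reads Sympk was not tested.

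Among 11 tested membrane proteins other than claudins, F11r, the junctional adhesion molecule JAM-A, fell 1.24-fold (-0.31 ± 0.06, limma adjusted p = 0.00223), with control array 3 alone within the low P/S range, and 10 did not pass. With quantile normalization 3 of these membrane proteins were lower, and on omission of control array 1 there were 2. Of 12 adherens junction genes 2 fell, Nectin1 by 1.32-fold and the plakoglobin gene Jup by 1.16-fold, and 10 did not pass. With quantile normalization 4 were lower, and with median centring 1. The Jup call ended with median centring (adjusted p = 0.0613) and on omission of control array 5 or 6 or of any of the low P/S arrays 3 to 6 (adjusted p up to 0.0652). Of 9 desmosome genes Dsg2 and Dsc2, both desmosomal cadherins, fell 1.13-fold and 1.18-fold, the plakophilin gene Pkp2 rose 1.21-fold, and 6 did not pass. With quantile normalization 1 was higher and 4 were lower.

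**Figure D5:**
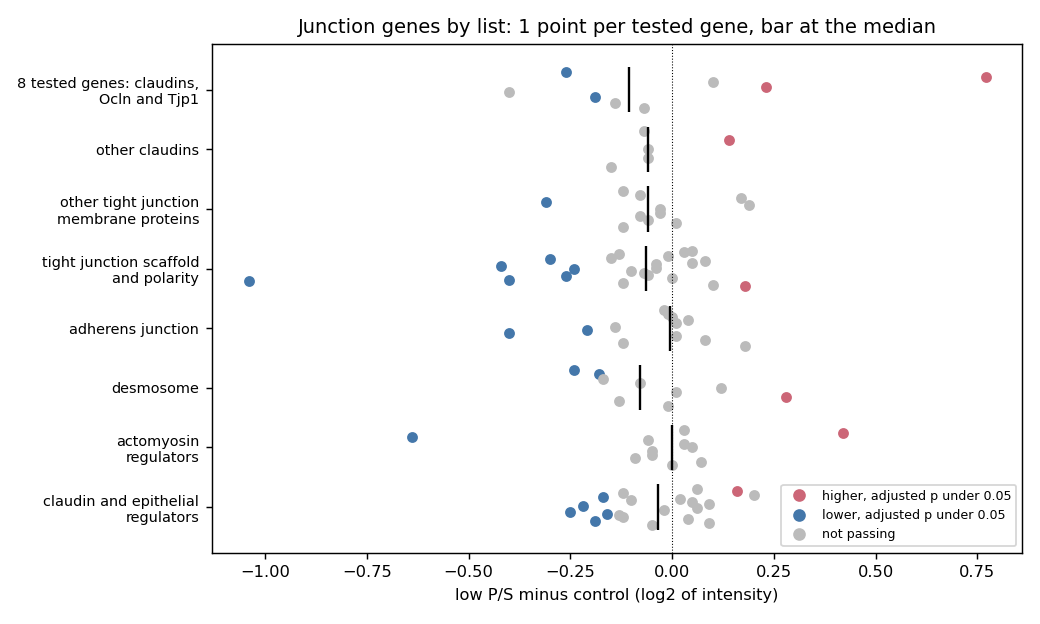
Diet difference (log2 of intensity) for each tested gene of the 7 junction and regulator lists, 1 row per list, with the 8 tested genes among the claudins, Ocln and Tjp1 on top; colours mark the call and the black bar the median of the row. Cldn2, at 0.77, is the highest point in these rows. Sympk at -1.04, read from the brighter of 2 probe sets, and Ezr at -0.64 are the lowest.

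Of 11 genes that act on the actomyosin belt at the junctions 1 fell, 1 rose and 9 did not pass. Ezr, which encodes ezrin, the linker of the apical membrane to actin, fell 1.55-fold (-0.64 ± 0.06, limma adjusted p = 3.64e-06), from intensities of 2366 to 2922 on the control to 1499 to 1743 on the low P/S diet. The kinase gene Cdc42bpa rose 1.34-fold. Of 20 regulators of claudins and epithelium 1 rose, Cdx2, and 5 fell, with 14 not passing. The falls were Epcam, the protease inhibitor genes Spint1 (1.19-fold) and Spint2 (1.12-fold) and, named after their values were seen, the vitamin D receptor gene Vdr and Klf4. Spint2, Vdr and Klf4 did not pass with median centring (adjusted p = 0.0583, 0.0785 and 0.0770), and with it 1 gene of the list was lower. Their calls also ended on omission of single arrays. For Spint2 these were control arrays 4, 5 and 6 and the low P/S arrays 4 and 5 (adjusted p up to 0.0625). For Vdr they were control arrays 1, 4, 5 and 6 and all low P/S arrays but 2 and 6 (adjusted p up to 0.110), and for Klf4 control arrays 1, 2, 5 and 6 and the low P/S arrays 3 to 6 (adjusted p up to 0.0831).

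Markers of enterocytes and of other cells moved beside these genes. Of 10 epithelium markers 4 fell, the brush border genes Myo1a (1.31-fold), Vil1 (1.23-fold) and Cdhr2 (1.24-fold) and the keratin gene Krt20 (1.17-fold), and 6 did not pass. Named after their values were seen, these 6 were Krt18 (0.20, limma adjusted p = 0.0558), Esrp1 (0.05), Krt19 (0.02), Krt8 (-0.00), Espn (-0.08) and Cdhr5 (-0.22). With a 60th percentile filter, array weights or a replicate block 1 marker of the list passed as higher. The same held on omission of control array 1 or 2 or of low P/S array 6. Krt20 did not pass with median centring (adjusted p = 0.0623), nor on omission of control array 5 or of the low P/S arrays 3, 5 or 6 (adjusted p up to 0.0633). Of 7 tested endothelium markers 3 rose, with sums of 819 to 897 on the control diet and 890 to 1080 on low P/S. Of these Emcn kept its call on omission of any array, the Lyve1 call ended on omission of control array 4 or of the low P/S arrays 1, 3 or 4 (adjusted p up to 0.0603) and the Kdr call on omission of control array 4, 5 or 6 or of the low P/S arrays 1, 2 or 4 (adjusted p up to 0.0777). Of 6 macrophage and dendritic cell markers 5 rose, with sums of 751 to 867 and 911 to 1192, and of 3 T cell markers 2 fell, with sums of 574 to 725 and 413 to 630. Of 8 smooth muscle markers, 2 of enteric neurons and glia, 3 of adipose tissue, 3 of exocrine pancreas and 1 of B cells 0 passed by limma, with 3 of the 17 at an unadjusted p under 0.05, 2 of adipose tissue and 1 of pancreas. The part of any of these cells in the differences of the claudins, Ocln and Tjp1 was not tested.

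Since claudins differ along the gut, segment markers stand beside them. Of 11 proximal markers 4 rose and 2 fell, of 7 distal markers 2 rose and 2 fell, and of 6 large intestine markers 1 rose. The counts of higher genes moved with single arrays. Proximal ones fell to 2 on omission of control array 3 or of the low P/S arrays 1 or 3. Distal ones fell to 1 on omission of any of control arrays 3 to 6 or of the low P/S arrays 1, 2 or 4, when the gut hormone gene Pyy did not pass (adjusted p up to 0.0845), and reached 3 without control array 2. Large intestine ones reached 2 without control array 1 or 2. The distal list summed to between 6179 and 7179 on the control and between 2830 and 3703 on the low P/S diet, mostly through the cobalamin receptor gene Cubn. The lactase gene Lct fell, while the calcium-binding gene S100g rose 1.38-fold (0.46 ± 0.07, limma adjusted p = 4.18e-04) and the colon-rich water channel gene Aqp4 1.33-fold. Whether the dissected stretches differed between the diets was not tested.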

How the data were processed

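Small intestine of 12 mice (6 per diet) was profiled on Affymetrix whole-transcript arrays from 500 ng of total RNA, per the labels' protocols. The authors deposited 1 intensity per probe set and array on a linear scale, between 17.7 and 20294; the sources used here name no summarization or normalization. Precision is limited by the number of arrays, and the median standard error was 0.061. Of 34760 probe sets 21640 named 1 gene, 1321 several and 11799 none, and 21553 of the 21640 matched an Entrez gene ID. The brightest probe set per gene gave 19937 genes. Those below the 40th percentile of mean level (85.6) were left out, and 11962 were tested.

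The diets were compared with lmFit and eBayes of limma 3.58.1 (R 4.3.3), fitting diet alone, with two-sided tests, Benjamini-Hochberg adjustment and a threshold of 0.05. Exact permutation tests over 924 arrangements used SciPy 1.17.1, and Python 3.11.15, NumPy 2.4.6, pandas 2.3.3 and matplotlib 3.10.9 did the rest. The genes and the 24 context lists (190 tested symbols) were chosen with earlier results of these data known. List counts and the permutation p-values of the gene pairs are therefore descriptions. Named are all 9 genes, the other claudins and up to 4 passing genes of smallest p per list, and genes named after their values were seen are marked. On simulated data with 11962 genes, 26 of 50 differences of 0.25 and 49 of 50 of 0.5 were recovered, and 7 of 182 calls were false. The simulated noise was independent between genes, and far fewer genes differed than the 3074 called in the real data. These rates therefore need not hold for the real arrays. Alternatives were other scalings, filters, probe set rules, weights, variances, a pseudocount, a replicate block and leaving out arrays. The design text calls the arrays biological replicates.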

Additional observations from a re-analysis of the deposited data

Results flagged for a closer look

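Within a diet, an array was set apart where its gap to the nearest of the other 5 on the log2 scale divided by the range of the group, exceeded Dixon's 95% critical value. Of 158 groups of 6 arrays checked, 7 had such an array, and chance gives about 1 in 20. Cldn23 was at 528 in low P/S array 4, with the others between 215 and 269. Tjp1 was at 955 in low P/S array 3, below the 1116 to 1208 of the others. F11r was at 1170 in control array 3, with the others between 1366 and 1423. Ccl9 was at 133 and the goblet cell gene Clca1 at 2250 in control array 6, below the 150 to 158 and 3242 to 3928 of the others. Emcn, an endothelial gene, was at 121 in low P/S array 4, above 92.8 to 101, and the T cell gene Cd8a was at 146 in low P/S array 5, below 185 to 198.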

How the results depend on the processing

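Cldn2 and Cldn15 kept direction and call under all alternatives run, and Cldn3 under all but leaving out low P/S array 1. Cldn7 did not pass with median centring (-0.18, adjusted p = 0.0677), no filter (-0.19, adjusted p = 0.0525), a trended robust prior (-0.19, adjusted p = 0.0534) or an ordinary variance per gene (-0.19, adjusted p = 0.0723). Cldn4 passed with quantile normalization (-0.46) and the 60th percentile filter (-0.40), and Ocln with quantile normalization (-0.21); the causes were not tested. Lower genes numbered 1595 with quantile normalization in place of 942. Leaving out 1 array in turn gave 0.68 to 0.84 for Cldn2, 0.20 to 0.29 for Cldn3, -0.50 to -0.31 for Cldn4, -0.22 to -0.15 for Cldn7, -0.28 to -0.23 for Cldn15, -0.08 to 0.18 for Cldn23, -0.21 to -0.10 for Ocln and -0.09 to -0.02 for Tjp1. Cldn23 turned to -0.08 without low P/S array 4. Over all genes 1610 to 2353 were higher and 788 to 1051 lower. The gene pair shifts ran from 0.93 to 1.09, -0.73 to -0.57 and -0.13 to -0.04. With the replicate number as a block, which changed no call of the 8 genes, Cldn2 was 0.77 (adjusted p = 2.48e-04) and 2454 genes were higher and 1076 lower. Same-numbered arrays did not all deviate together (correlations from -0.109 to 0.418), so the numbers were not taken as pairs. Without control arrays 1 and 2, a choice made after seeing the data, Cldn2 was 0.87. The arrays give no detection call, so a gene near background, such as Cldn8, was not read further.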

Other observations

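Of 6 tested goblet cell markers 2 rose, the mucus folding gene Agr2 by 1.55-fold (0.63 ± 0.15, limma adjusted p = 0.00671) and Clca1 by 1.28-fold, and 4 did not pass. The Clca1 call ended on omission of control array 4 or of any of the low P/S arrays 1 to 4 (adjusted p up to 0.0783). Of 6 Paneth cell markers 1 rose, the phospholipase gene Pla2g2a (1.27-fold, limma adjusted p = 0.0448), a call that ended on omission of control array 3, 4 or 6 or of the low P/S arrays 1, 3, 4 or 5 (adjusted p up to 0.106), and 5 did not pass.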
